A study of Mus musculus with 4 samples.

Results

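A small group of resting Cd8-expressing thymocytes, labelled double positive (DP) though the rule did not ask for Cd4, carried transcripts that cells make in answer to interferon. They were chosen by their own counts: barcodes with 1000 to 6000 unique molecules (UMIs), none of the division genes Mki67 and Top2a, at least 3 UMIs of Cd8a and Cd8b1 together, none of S1pr1, and at least 3 UMIs in all of Ifit1, Ifit3, Isg15, Rsad2 and Usp18. The rule found 241 interferon-response cells among 8961 barcodes, of which 6991 met the first 4 conditions and are called gated cells here. Of the gated cells, 5820 had no UMI of the 5 genes, and these cells with none were the comparison within each library.

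Wild-type mouse thymi had been in their hosts for 28 days after transplantation, under a condition labelled autonomy or one labelled turnover. In autonomy a thymus goes on producing T cells from its own resident thymocytes, and in turnover progenitors from the host replace them. Thymocytes of both conditions were sorted to hold the stages from DN3-DN4 over the immature single positive stage to DP, and were sequenced in droplets for 5′ gene expression and for their T cell receptor (TCR) rearrangements (V(D)J). Each condition had 1 library per assay. The strain and age of donors and hosts and the number of animals were not described in the labels, which leaves the variation from animal to animal unmeasured, and no test is given. The intervals, at 95%, cover counting error only.

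Interferons are secreted proteins that cells release on sensing viral nucleic acids, and some tissues make them without infection. Type I interferons bind the receptor chains Ifnar1 and Ifnar2, the kinases Jak1 and Tyk2 then activate STAT proteins, and these join Irf9 in a complex that binds the interferon-stimulated response element (ISRE) in the promoters of its targets. Interferon gamma acts through other receptor chains and STAT dimers that bind a second element, GAS. The targets include enzymes that block viral RNA and protein, GTPases that attack vacuoles, and the machinery that shows peptides on MHC class I. In the thymus, epithelial cells are known to make type I interferons, and a response in thymocytes is best known from late stages of maturation.

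The autonomy table held 4587 barcodes and 16388810 UMIs, and the turnover table held 4374 barcodes and 20163286 UMIs. Both tables contained 31 barcodes in common, of which 4 were interferon-response cells of the autonomy library and 0 of the turnover library. Autonomy cells came from both sexes by their Xist and Y-linked UMIs, whereas no gated turnover cell compared here had an Xist UMI. Animals, sexes and the condition therefore cannot be told apart between libraries. Gated autonomy cells also shared TCR chains widely, while the counting intervals treat cells and UMIs as independent.

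The promoters of 5 genes of the response are shown because they hold the letters of the element described above. Each run is 300 bases, 250 before and 50 after the annotated start, from RefSeq (GRCm38.p6, the build also called mm10) and read on the strand of the gene. Capitals mark matches, on either strand, to the ISRE letters, which were taken as GAAA, any 2 bases (NN) and GAAA again. Isg15 and Ifit1 were among the genes that chose the cells, and Tgtp2, Irgm1 and Bst2 were not.
Isg15, chr4:156200769-156201068, minus strand: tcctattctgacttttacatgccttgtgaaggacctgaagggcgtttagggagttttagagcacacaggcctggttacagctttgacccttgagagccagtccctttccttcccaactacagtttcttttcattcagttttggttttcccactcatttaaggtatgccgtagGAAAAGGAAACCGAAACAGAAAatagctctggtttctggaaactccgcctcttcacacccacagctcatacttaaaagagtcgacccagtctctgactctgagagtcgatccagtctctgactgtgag
Ifit1, chr19:34640639-34640938, plus strand: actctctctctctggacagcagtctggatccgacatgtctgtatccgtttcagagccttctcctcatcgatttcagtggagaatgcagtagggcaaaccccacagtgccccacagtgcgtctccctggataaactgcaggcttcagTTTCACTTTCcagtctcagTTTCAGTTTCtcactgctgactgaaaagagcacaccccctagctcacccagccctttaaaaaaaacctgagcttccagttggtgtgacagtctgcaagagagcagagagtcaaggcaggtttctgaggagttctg
Tgtp2, chr11:49064163-49064462, minus strand: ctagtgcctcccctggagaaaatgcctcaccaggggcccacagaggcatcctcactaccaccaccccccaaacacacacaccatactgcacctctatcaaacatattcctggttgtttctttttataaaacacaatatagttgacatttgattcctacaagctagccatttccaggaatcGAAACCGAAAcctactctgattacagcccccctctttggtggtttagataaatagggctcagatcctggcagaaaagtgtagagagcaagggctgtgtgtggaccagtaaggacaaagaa
Irgm1, chr11:48871371-48871670, minus strand: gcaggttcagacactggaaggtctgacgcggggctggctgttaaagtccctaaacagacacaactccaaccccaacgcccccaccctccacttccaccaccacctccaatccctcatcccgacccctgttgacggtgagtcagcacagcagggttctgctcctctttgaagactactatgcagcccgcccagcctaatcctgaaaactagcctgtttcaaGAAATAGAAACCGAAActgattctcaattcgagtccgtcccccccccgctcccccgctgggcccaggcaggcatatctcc
Bst2, chr8:71537423-71537722, minus strand: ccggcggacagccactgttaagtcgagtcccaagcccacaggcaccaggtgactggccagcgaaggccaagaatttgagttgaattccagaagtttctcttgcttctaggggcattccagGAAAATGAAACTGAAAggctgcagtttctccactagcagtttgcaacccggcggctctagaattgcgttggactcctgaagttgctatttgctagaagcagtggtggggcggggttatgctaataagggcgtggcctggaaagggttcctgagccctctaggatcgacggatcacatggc
Isg15, which encodes a small protein that is attached to other proteins, had 3 overlapping matches that began 78, 72 and 66 bases before its start. Ifit1, which encodes a binder of foreign RNA caps, had matches 104 and 85 bases before its start. Of 2 GTPases of the IRG family, Tgtp2 had a match 70 bases before its start and Irgm1 had overlapping matches 30 and 24 bases before its start. Bst2, the membrane tether that holds virions on the cell, had matches 130 and 124 bases before its start.

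The share of interferon-response cells was higher in the autonomy library. They were 224 of 3753 gated autonomy cells (5.97%, exact interval 5.23% to 6.77%) and 17 of 3238 gated turnover cells (0.525%, 0.306% to 0.839%), a ratio of 11.4 (6.96 to 18.6). Gated autonomy cells had a median of 2323 UMIs and gated turnover cells 1916. After every cell was thinned to 1000 UMIs, the shares were 2.37% of autonomy and 0.216% of turnover cells, a ratio of 11 (5.09 to 23.6). At least 1 UMI of the 5 genes was found in 26.9% of autonomy and 5.03% of turnover cells, a ratio of 5.34 (4.55 to 6.25). No cell type in the tables is known to lack these genes, so no background share could be set beside these. The ratio was also smaller in 2 subsets: 5.19 over gated cells with Y-linked and no Xist UMIs, which left 28 autonomy and 12 turnover interferon-response cells, and 5.98 over gated cells with no UMI of a list of mature thymocyte genes, which left 55 and 8. With a sum of at least 5 UMIs the share ratio was 7.63, from 115 autonomy cells (3.06%) and 13 turnover cells (0.401%).

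Many members lay close to the threshold. In autonomy, 179 gated cells had 2 UMIs of the 5 genes, just outside, and 72 and 37 cells had 3 and 4, just inside. In turnover, 16 cells had 2 UMIs, 4 had 3, 0 had 4 and 5 had 5. The sum over the 5 genes ran from 3 to 80 with a median of 5 in autonomy cells, and from 3 to 20 with a median of 5 in turnover cells. At least 2 of the 5 genes were found in 168 of the 224 autonomy cells and in 12 of the 17 turnover cells.

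**Figure D1:**
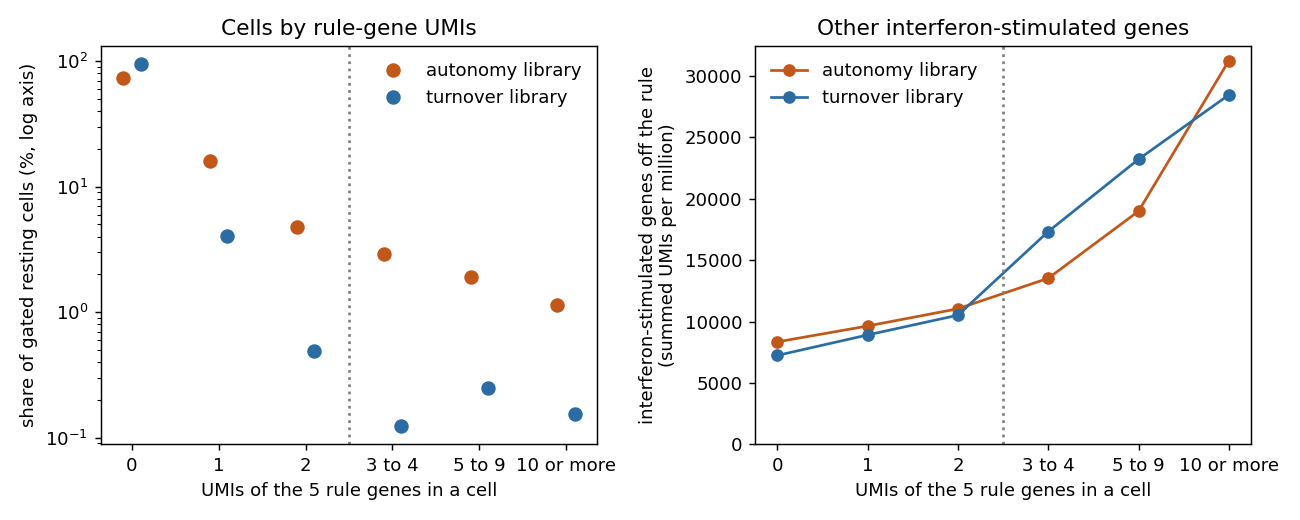
Left, share of gated cells (%, log axis) by the UMIs of the 5 genes that chose the cells, for the autonomy and turnover libraries. Right, summed level of the other interferon-stimulated genes (CPM) in the same cells; cells right of the dotted line are interferon-response cells. The shares of autonomy cells lie above those of turnover cells wherever a UMI was found, and the summed level is higher in each bin than in the bin to its left in both libraries.

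Interferon-stimulated transcripts outside the 5 genes were more abundant in cells that had more UMIs of the 5. A list of 102 such genes summed to 8343 UMIs per 1000000 UMIs of the cell set (CPM) in autonomy cells with 0 UMIs of the 5 genes, 9637 with 1, 11042 with 2, 13527 with 3 to 4, 18997 with 5 to 9 and 31262 with 10 or more. In turnover cells the same sums were 7240, 8908, 10519, 17335, 23228 and 28475 CPM. The levels of cells with 1 or 2 UMIs thus lay between those with none and the members in both libraries. Cd69 and Itm2a are used as marks of a TCR signal. The share of cells with a UMI of either was 11.7% in autonomy cells with none and 41.9% in those with 10 or more. In between it was 15%, 16.8%, 20.2% and 26.4%. In turnover the share showed no such order, at 18.7%, 23.1%, 25% and 0% with 0, 1, 2 and 3 to 4 UMIs. It was 12.5% of 8 turnover cells with 5 to 9 and 40% of 5 with 10 or more. Whether these cells had received a TCR signal was not tested.

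The 5 genes that chose the cells are given as a description. Isg15 (chr4:156199424-156200818) reached 1723 CPM in autonomy members, with a UMI in 95.5% of them, and 1878 CPM in turnover members, with a UMI in 94.1%. Usp18 (chr6:121245906-121270917), the protease that removes Isg15 from proteins and damps the type I receptor, had 433 CPM in autonomy and 832 CPM in turnover members. Ifit1 (chr19:34640889-34650009) had 286 CPM in autonomy and 376 CPM in turnover members. Rsad2 (chr12:26442743-26456452), viperin, which makes a nucleotide that ends viral RNA chains, had 187 CPM in autonomy and 295 CPM in turnover members. Ifit3 (chr19:34583119-34588982), a partner of Ifit1, had 34.5 CPM in autonomy members and 0 of their 37273 UMIs in turnover members, which allows up to 3 UMIs. Isg15 gave most of the UMIs by which cells were found. Positions are those of RefSeq on GRCm38.p6.

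Each of these genes was also measured in cells chosen by the other 4, so that its own UMIs did not choose the cells. In autonomy, Ifit1 had 274 CPM in the 212 cells so chosen and 2.59 CPM in cells with none of the others, a ratio of 106 (64.3 to 186). The ratio was 35.3 for Rsad2 (23.6 to 54.1), 27.1 for Ifit3 (10.1 to 84.4), 25.6 for Isg15 (22.9 to 28.5) and 12.3 for Usp18 (10.2 to 14.8). In turnover, Usp18 had a ratio of 162 (94.0 to 279), Isg15 106 (70.4 to 155) and Rsad2 67.0 (21.5 to 180). Ifit1 had 14 UMIs in 17 turnover cells chosen by the other 4 and 1 UMI in 3076 cells without them, and Ifit3 had 0 and 1. The level of Isg15, Rsad2 and Usp18 was thus higher in the chosen cells of both libraries. Their UMIs were not confined to those cells: of the Isg15 UMIs, 589 lay in 68 chosen autonomy cells and 776 in 515 autonomy cells with none of the other 4 genes, and in turnover 35 lay in 8 and 120 in 102 such cells.

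Levels of further genes were set beside the label of the cells. Rtp4, an interferon-induced protein that limits viral replication, had a UMI in 72.3% of autonomy and 64.7% of turnover members. It had a UMI in 10.6% of autonomy and 2.21% of turnover cells with none. Rtp4 was among the markers given for these cells with earlier results of these data known, so these shares are a description. Cd4 had 732 CPM in autonomy members and 939 CPM in autonomy cells with none, with a UMI in 79.9% of members and 86.7% of cells with none. In turnover Cd4 had 778 CPM in members and 889 CPM in cells with none. Rag1, which cuts TCR genes for rearrangement, had 999 CPM in members and 1399 CPM in cells with none in autonomy (ratio 0.714, 0.659 to 0.773), and 805 and 1420 CPM in turnover (0.567, 0.382 to 0.810). Of 20 DP genes all 20 were measured in autonomy and none passed 2-fold, and their summed level in members was 0.875 times that of cells with none (0.861 to 0.890). In turnover 19 of these genes were measured, of which 1 was past 2-fold higher and 1 past 2-fold lower, beside 11% and 8.81% of all genes. The ratio of the sums in turnover was 1.01 (0.953 to 1.07). Cd8a and Cd8b1, which the rule itself asked for, count among the DP genes, so the sums are partly set by the rule. The rule asked for no Cd4, and genes of selected thymocytes such as Cd69 were higher in autonomy members, as given below. Mature cells without a detected S1pr1 UMI could also meet the rule. Whether some members are selected or mature cells rather than DP cells was not tested.

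Across all genes, a gene was measured where the mean of its levels in both cell sets reached 50 CPM, and it was called higher or lower past 2-fold. In autonomy 67 of 3914 measured genes were higher in members (1.71%) and 5 were lower (0.128%). In turnover, where 17 members held 37273 UMIs against 667620 in the 224 autonomy members, 377 of 3440 genes were higher (11%) and 303 lower (8.81%). A count of 4 UMIs in the turnover members came to 107 CPM, as for Gbp6 and Gzma, so a turnover ratio rests on few molecules for most genes. The rule drew on values of these same cells, so these counts are a description.

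Both libraries together gave 53 of 3093 genes higher (1.71%) and 1 lower (0.0323%). Without the rule genes 49 genes were higher in both, of which 45 stood on a list of interferon-stimulated genes, STAT and IRF factors, nucleic acid sensors or MHC class I genes. The remaining 4 were Samd9l, a restriction factor of viral translation, BC147527, Cd53, a tetraspanin of leukocytes, and Gzma, a protease of cytotoxic cells. The 49 genes were 77.8% of the 63 genes outside the rule that were higher in autonomy and 13.1% of the 373 in turnover. A gene low in cells with none could be measured only if it was high in members, so such a gene had to differ. Among genes of at least 50 CPM in cells with none in both libraries, 13 of 3320 were higher in both (0.392%).

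**Figure D2:**
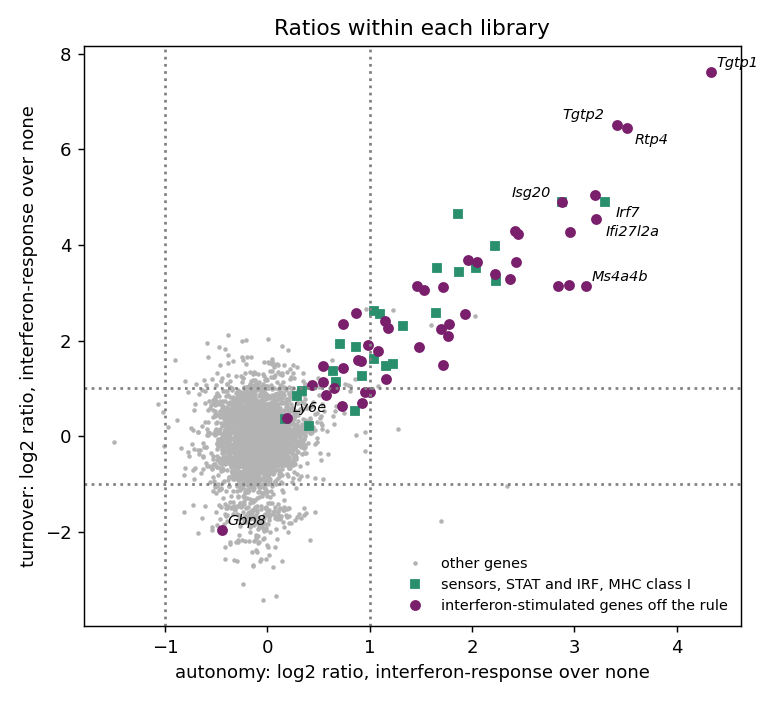
Log2 ratio of the level in interferon-response cells over cells with none, in autonomy (horizontal) and turnover (vertical), for 3072 genes measured in both libraries, with the rule genes and 17 genes at 0 UMIs in a cell set left out; dotted lines mark 2-fold. Circles are 47 interferon-stimulated genes, squares 25 sensor, STAT, IRF and MHC class I genes and small points the other genes. Of the marked genes 45 lie past 2-fold higher in both libraries, in the upper right corner, and others such as Gbp8 and Ly6e do not. Most other genes scatter about 0, more widely in turnover.

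Of the signalling genes, the transcription factors Irf9 and Irf7 passed 2-fold in both libraries, and no measured receptor did in either. Irf9, the DNA-binding part of the complex at the ISRE, had 243 CPM in members and 66.8 CPM in cells with none in autonomy (3.63, 3.01 to 4.36), and 537 and 21.4 CPM in turnover (25.1, 14.9 to 40.3). Irf7, which amplifies the production of type I interferon, had 334 CPM in members and 34.0 CPM in cells with none in autonomy (9.84, 8.13 to 11.9), and 215 and 7.22 CPM in turnover (29.7, 12.1 to 63.6). Nmi, a binding partner of STAT proteins, had a ratio of 1.56 in autonomy (1.20 to 2.0) and 2.56 in turnover (1.02 to 5.31). Stat2, a partner of Irf9, was below the measured level and had 35.9 CPM in members and 41.5 CPM in cells with none in autonomy.

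In autonomy, the measured receptor chains and kinases stayed within 2-fold. Ifnar1 had 64.4 CPM in autonomy members and 72.5 CPM in autonomy cells with none (ratio 0.888, 0.634 to 1.22), Ifnar2 71.9 and 70.7 CPM (1.02, 0.740 to 1.37) and Jak1 316 and 302 CPM (1.05, 0.905 to 1.21). Ifngr1, the ligand-binding chain for interferon gamma, had 906 CPM in members and 1028 CPM in cells with none (0.882, 0.810 to 0.959). None of 4 measured receptor and kinase genes passed 2-fold in autonomy and none of 2 in turnover, and the sums of this list had ratios of 0.935 (0.874 to 0.998) and 1.08 (0.786 to 1.46). Of the feedback inhibitors other than Usp18, none of 5 measured in autonomy and none of 4 in turnover passed 2-fold, and Socs1, which blocks the receptor kinases, had 768 CPM in members and 841 CPM in cells with none in autonomy. Of 21 genes in the tables that encode interferons, 20 had no UMI in any barcode of either library. The exception, Ifnz, had 1 UMI in autonomy and 2 in turnover.

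Of 102 interferon-stimulated genes outside the rule, 50 were measured in autonomy, and 34 of these were higher with a median log2 ratio of 1.70, against a median of -0.08 over all 3914 genes. In turnover 45 of 53 were higher and 1 was lower, with a median of 2.42 against 0.06 over all genes. Of the 102 genes, 7 had no UMI in autonomy members and 31 none in turnover members. Among genes of at least 50 CPM in cells with none, 13 of 29 were higher in autonomy and 16 of 24 in turnover, beside 0.681% and 3.39% of all genes under that condition. The summed level of the list was 2.26 times as high in members in autonomy (2.22 to 2.30) and 3.26 times in turnover (3.04 to 3.48).

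Rtp4 (chr16:23520219-23614222) had 735 CPM in members and 64.2 CPM in cells with none in autonomy (ratio 11.4, 10.0 to 13.1), and 1207 and 13.8 CPM in turnover (87.4, 59.6 to 127). Tgtp1 and Tgtp2, near-identical neighbours on chromosome 11 between which reads may be split wrongly, had ratios of 20.2 (14.3 to 28.8) and 10.7 (8.86 to 12.9) in autonomy. Among cells with no UMI of the mature list the autonomy log2 ratio of Tgtp1 was 2.74, against 4.33 over all. Its turnover log2 ratio was 9.57 in such cells, against 7.61 over all. The turnover ratios of Tgtp1 and Tgtp2 were 195 (61.9 to 632), from 8 UMIs in members, and 91.4 (52.6 to 155). All 3 genes were named because they passed 2-fold in both libraries, so members lay above cells with none by that choice.

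**Figure D3:**
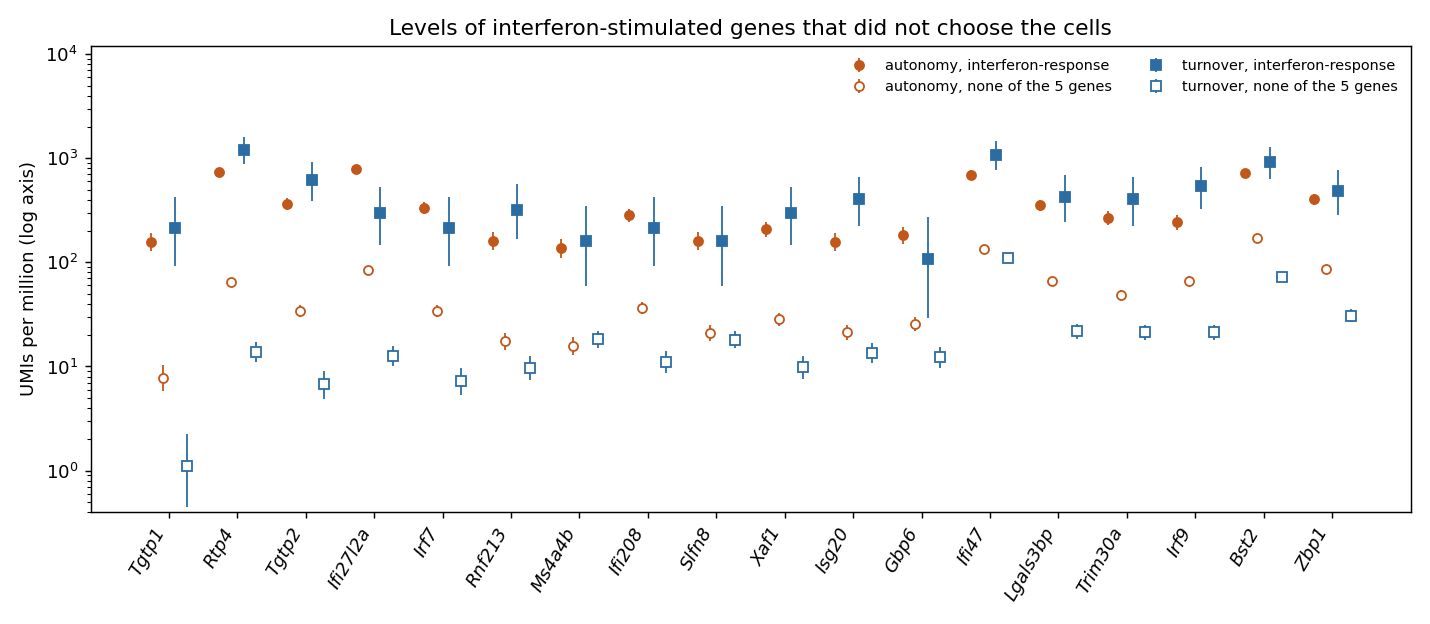
Level (CPM, log axis) of 18 interferon-stimulated genes outside the rule in interferon-response cells (filled) and cells with none of the 5 genes (open), for the autonomy library (circles) and the turnover library (squares), with 95% counting intervals. All genes drawn were taken from those past 2-fold higher in both libraries, so filled symbols lie above open ones by that choice. Most open circles lie above the open squares.

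Of 11 measured GTPases of the MX, GBP and IRG families 9 were higher in autonomy, and in turnover 8 of 10 were, beside 1.71% and 11% of all genes. Of the 4 that reached 50 CPM in cells with none in each library, 2 were higher in autonomy and 2 in turnover. Ifi47, an IRG protein, had 698 CPM in members and 135 CPM in cells with none in autonomy (5.16, 4.60 to 5.78), and 1073 and 110 CPM in turnover (9.72, 6.88 to 13.4). Gbp6, of the guanylate-binding proteins that coat intracellular pathogens, had ratios of 7.15 (5.62 to 9.09) and 8.76 (2.33 to 23.3, 4 UMIs) in autonomy and turnover. Gbp8 went the other way, with 199 CPM in members and 271 CPM in cells with none in autonomy (0.736, 0.612 to 0.878) and a ratio of 0.257 from 2 UMIs in turnover (0.0310 to 0.928).

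Sensors and enzymes of nucleic acids were higher for 9 of 11 measured genes in autonomy and 9 of 10 in turnover, beside 1.71% and 11% of all genes. Among those of at least 50 CPM in cells with none, 2 of 4 were higher in autonomy and 1 of 2 in turnover. Isg20, an exonuclease that degrades viral RNA, had 157 CPM in members and 21.4 CPM in cells with none in autonomy (7.34, 5.65 to 9.53), and 402 and 13.5 CPM in turnover (29.8, 16 to 51.9). Zbp1, a sensor of Z-form nucleic acid that can start cell death, had ratios of 4.66 (4.02 to 5.4) and 15.7 (9.11 to 25.5), and Ddx58, the RNA sensor RIG-I, 3.66 (2.82 to 4.70) and 10.8 (5.29 to 19.8). Ifih1, the long-RNA sensor MDA5, had 102 CPM in autonomy members and 13.3 CPM in cells with none (7.65, 5.49 to 10.6) and no UMI in turnover members.

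Of the interferon-inducible proteins without a shared enzymatic role, Ifi27l2a, a small membrane protein, had 792 CPM in members and 85.3 CPM in cells with none in autonomy (9.28, 8.23 to 10.5), and 295 and 12.7 CPM in turnover (23.2, 11.1 to 43.7). Ifi208, of the DNA-binding IFI200 family, had ratios of 7.74 (6.37 to 9.41) in autonomy and 19.3 (8.0 to 40.0) in turnover. Rnf213, a very large ubiquitin ligase, had 9.20 (7.01 to 12.1) and 33.1 (16.2 to 62.0), and Xaf1, a binding partner of the apoptosis inhibitor XIAP, 7.36 (5.86 to 9.22) and 29.8 (14.2 to 57.1). Lgals3bp, a secreted glycoprotein, had 5.35 (4.55 to 6.29) and 19.7 (10.9 to 33.1), and Trim30a, of the tripartite motif family, 5.46 (4.52 to 6.58) and 18.8 (10.3 to 32.2). Slfn8, of the schlafen family, had 7.72 (5.94 to 10.0) and 8.91 (3.20 to 20.0). Each of these was named because it passed 2-fold in both libraries and ranked high by its autonomy interval. Their direction was thus set by the choice and is a description. Cells with no UMI of the mature list left 55 autonomy and 8 turnover members, and log2 ratios moved both ways in them. Autonomy log2 ratios were 2.59 for Ifi27l2a and 2.18 for Xaf1, lower than over all cells. Turnover log2 ratios were 3.18 for Rnf213, 3.18 for Xaf1 and 2.73 for Ifi208, also lower. In autonomy Ifi208 was at 3.48, Lgals3bp at 2.73 and Trim30a at 2.75, higher than over all cells (2.95, 2.42 and 2.45). Bst2 had 716 CPM in members and 173 CPM in cells with none in autonomy, and 912 and 73.0 CPM in turnover. Ms4a4b, a membrane protein of T cells, had a ratio of 8.65 (6.45 to 11.6) in autonomy and 8.76 (3.15 to 19.6) in turnover, but its autonomy log2 ratio was -0.63 among cells without a UMI of the mature thymocyte list. Ly6e, by contrast, was abundant in all cells, with 2239 CPM in members and 1957 CPM in cells with none in autonomy (1.14, 1.08 to 1.21).

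MHC class I genes differed by less. Of 15 measured genes for class I chains and peptide supply 6 were higher in autonomy, and 10 of 14 in turnover, beside 1.71% and 11% of all genes, and the list summed to 1.75 (1.69 to 1.80) and 2.44 (2.13 to 2.78) times the level of cells with none. Tapbp, which loads peptides onto class I, had 232 CPM in members and 92.5 CPM in cells with none in autonomy (2.51, 2.09 to 3.0), and 268 and 54.3 CPM in turnover (4.94, 2.35 to 9.19). H2-T23, a nonclassical class I chain, had ratios of 2.35 (2.10 to 2.61) and 2.85 (1.82 to 4.25), and B2m, the shared light chain, 1.90 (1.73 to 2.08) and 2.40 (1.58 to 3.50). H2-K1 had 214 CPM in members and 65.9 CPM in cells with none in autonomy (3.25, 2.67 to 3.93) and no UMI in turnover members.

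**Figure D4:**
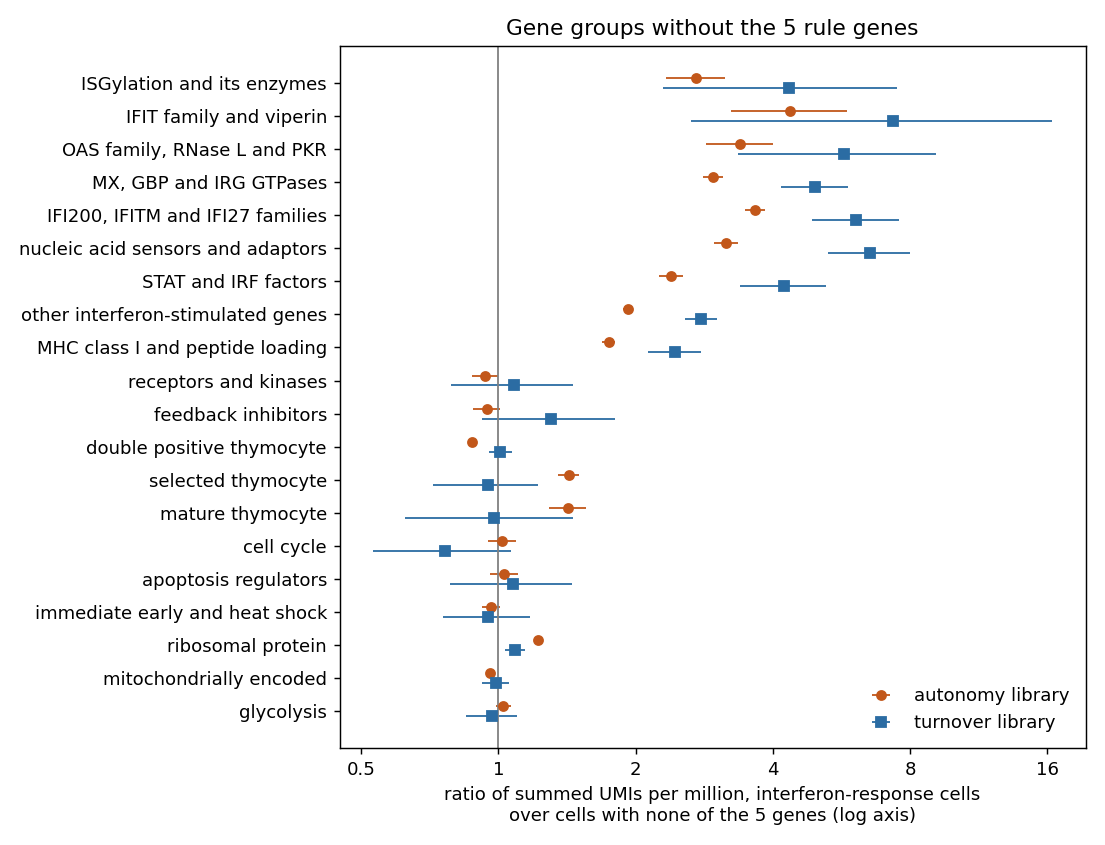
Ratio of the summed level of gene lists (log axis, rule genes left out) in interferon-response cells over cells with none, with 95% counting intervals, for the autonomy and turnover libraries. Lists from ISGylation to MHC class I and peptide loading lie right of 1 in both libraries; class II genes and lists of other cell types are not drawn; receptors, feedback inhibitors and housekeeping lists lie near 1, and selected and mature thymocyte genes lie right of 1 in autonomy.

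Some genes that are high in cells past TCR signalling were higher in autonomy members. Whether these members had received such a signal was not tested. Itm2a had 264 CPM in members and 52.2 CPM in cells with none (5.05, 4.19 to 6.08), Cd69 166 and 51.4 CPM (3.24, 2.59 to 4.02), and Bcl2, which protects T cells from death, 80.9 and 20.5 CPM (3.95, 2.82 to 5.45). Of 10 measured genes of the selected thymocyte list 4 were past 2-fold higher, beside 1.71% of all genes, and 2 of 8 among those of at least 50 CPM in cells with none. In autonomy the list summed to 1.43 times the level of cells with none (1.35 to 1.5). A UMI of Cd69 or Itm2a was found in 26.3% of autonomy members (20.7% to 32.6%) and in 11.7% of cells with none. In turnover it was found in 3 of 17 members (17.6%, 3.80% to 43.4%) and in 18.7% of cells with none, and the list's ratio was 0.947 (0.720 to 1.22). A UMI of the mature thymocyte list was found in 75.4% of autonomy members and 66.0% of cells with none, and in 52.9% and 67.4% in turnover. Among cells without a Cd69 or Itm2a UMI, 41 genes outside the rule were higher in both libraries and 29 interferon-stimulated genes in autonomy.

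Transcripts of other cell types were present at low levels. The 17 genes of a macrophage, granulocyte and dendritic cell list summed to 734 CPM in autonomy members and 274 CPM in cells with none (2.68, 2.42 to 2.96). Of these genes 4 had no UMI in autonomy members, Siglech and Xcr1 among them, and a UMI of the list was found in 22 of 224 members (9.82%) and 6.74% of cells with none. Apoe, a lipid carrier of macrophages, had 205 CPM in autonomy members and 60.7 CPM in cells with none. Turnover members had 0 UMIs of the whole list. Without the autonomy and turnover cells that had a UMI of this list, the share ratio was 10.8 and 52 genes outside the rule were higher in both. Class II genes, targets of interferon gamma and also markers of those cells, summed to 2.17 times the level of cells with none in autonomy (1.79 to 2.62) and had no UMI in turnover members. Gzma had 253 CPM in autonomy members and 119 CPM in cells with none, beside 2.04 (1.75 to 2.36) for the sum of the NK and innate T cell list, of which 7 of 12 genes had no UMI in those members. B cell, erythroid and stroma lists had ratios of 0.922 and 0.917 in autonomy.

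General state differed little. Cell cycle genes other than those of the rule had a summed ratio of 1.02 (0.947 to 1.09) in autonomy and 0.765 (0.532 to 1.06) in turnover. Apoptosis regulators had 1.03 (0.959 to 1.10) and 1.08 (0.783 to 1.45), and mitochondrially encoded genes 0.957 (0.940 to 0.975) and 0.986 (0.921 to 1.06). Ribosomal protein genes had 1.22 (1.21 to 1.24) in autonomy and 1.09 (1.04 to 1.15) in turnover. Autonomy members had a median of 2679.5 UMIs and cells with none 2268, and in turnover the medians were 2147 and 1903. The part of other cell types, of depth and of the stage of the cells in the ratios above was not tested.

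Of the genes past 2-fold lower in members, 5 in autonomy and 303 in turnover, 1 was lower in both libraries. This was Trbv17, a V segment of the TCR beta chain: it had 21.0 CPM in members and 120 CPM in cells with none in autonomy (0.175, 0.0952 to 0.295). In turnover it had 0 UMIs in members and 1769 in cells with none. Few cells carry a given V segment: Trbv17 had a UMI in 2.23% of autonomy members and 4.74% of autonomy cells with none. In turnover it had a UMI in 3.41% of cells with none, so 17 members may hold no carrier. A floor of 3 UMIs therefore does not bound its turnover ratio, and single cells set its levels. Among cells with no UMI of the mature list the autonomy log2 ratio of Trbv17 was -0.87, which does not pass 2-fold. In autonomy the other genes past 2-fold lower were Trbv2, another V segment, and Cldn4, Unc5cl and Tdrd5, with ratios of 0.493 for Trbv2, 0.354 for Cldn4, 0.478 for Unc5cl and 0.495 for Tdrd5.

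The response was set side by side between the libraries, which share no cells. Off-rule interferon-stimulated genes summed to 18853 CPM in autonomy members and 23583 CPM in turnover members, a ratio of 0.799 (0.747 to 0.857). Members had a median of 2679.5 UMIs in autonomy and 2147 in turnover. With 3 to 4 rule UMIs there were 109 of 224 autonomy and 4 of 17 turnover members, at 13527 and 17335 CPM. The sums were 18997 and 23228 CPM with 5 to 9 rule UMIs, and 31262 and 28475 CPM with 10 or more. The part of depth and of rule UMIs in the contrasts between libraries was not tested. In cells with none the off-rule genes summed to 8343 CPM in autonomy and 7240 CPM in turnover (1.15, 1.14 to 1.17). Of the 50 such genes measured in autonomy, 16 (32%) had a higher level in autonomy than in turnover members, beside 48.3% of all genes compared. In cells with none 43 (86%) of these genes, which were chosen by their autonomy level, had a higher level in autonomy. Of the 25 listed genes that passed the filter over cells with none of both libraries, 19 were higher in autonomy, beside 58.3% of all genes under that filter. Rtp4, for instance, was at 735 CPM in autonomy and 1207 CPM in turnover members (0.609, 0.448 to 0.846), and at 64.2 and 13.8 CPM in cells with none of these libraries (4.65, 3.69 to 5.92). The ratio of members over cells with none was larger in turnover for 41 of the 50 genes. The 5 rule genes were at 0 in cells with none of both libraries by the rule.

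The 17 turnover members can be given cell by cell. The cell with most rule UMIs had 20 of the 5 genes, 107 of the other interferon-stimulated genes and 6 of Rtp4 among 2509 UMIs. Off-rule interferon-stimulated UMIs ran from 21 to 107 per cell, against a median of 14 in turnover cells with none. The 4 cells with 3 rule UMIs had 39, 37, 37 and 21 of them, all above that median. Rtp4 was found in 11 of the 17 cells.

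Between members of the 2 libraries, 492 of 3597 measured genes were past 2-fold higher in autonomy (13.7%) and 344 past 2-fold lower (9.56%). Over cells with none, where the sums are far larger, 215 of 3735 were higher (5.76%) and 16 lower (0.428%). Dtx1, a regulator and target of Notch signalling, had 333 CPM in autonomy members and 0 UMIs in turnover members, at least 4.13-fold higher by a floor of 3 UMIs over the members, and was 376-fold higher in autonomy among cells with none (161 to 1159). Phlda1 was at least 4.06-fold higher by the same floor, and 8.62-fold among cells with none (7.57 to 9.86). Ptcra, the surrogate alpha chain of the pre-TCR, had 421 CPM in autonomy members and 26.8 CPM, 1 UMI, in turnover members (15.7, 2.79 to 622). Lef1, a transcription factor of early T cells, likewise had 436 CPM and 26.8 CPM (16.2, 2.89 to 644), and Btg1, a growth inhibitor, 1492 and 349 CPM (4.28, 2.49 to 8.06). Xist was at least 4.97-fold higher and the Y-linked Eif2s3y 0.0628 times as high in autonomy members. Further genes at the ends of the ranking were TCR segments and constant regions. Trbv1 and Trbv15 had 0 UMIs in turnover members (4.97-fold and 4.88-fold higher with the same floor). Trbv13-1, Trav6-7-dv9, Trbv5, Trbv26, Trbv20 and Trbc1 had ratios between 0.108 and 0.293, beside Ppil4 at 0.171. A segment such as Trbv13-1 came from 17.6% of the 17 turnover members, so single cells set its level. For the same reason the floor does not bound the ratios of Trbv1 and Trbv15.

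Autonomy members held Xist more often than Y-linked transcripts. Of autonomy cells with either Xist or Y-linked UMIs, Xist cells were 78.6% among 131 members (70.6% to 85.3%) and 61.2% among cells with none (58.8% to 63.7%). Interferon-response cells were 7.42% of gated autonomy cells with Xist and no Y-linked UMIs (6.09% to 8.92%) and 3.54% of those with Y-linked and no Xist UMIs (2.37% to 5.08%). These had medians of 2440 and 2351.5 UMIs. Which of these cells came from donors and which from hosts was not given in the labels.

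TCR chains of the members were spread over many clones. A productive beta chain (TRB) was found in 75.4% of autonomy members (69.3% to 80.9%) and 72.4% of cells with none, and in 16 of 17 turnover members (94.1%) and 89.9% of cells with none. A productive alpha chain (TRA), which is rearranged in DP cells, was found in 44.2% of autonomy members (37.6% to 51.0%) and 39.7% of cells with none (37.9% to 41.6%). In turnover it was found in 4 of 17 members (23.5%, 6.81% to 49.9%) and 47.7% of cells with none, a share inside the members' interval. Alpha chain J segments are numbered so that repeated rearrangement moves from high numbers to low, and the median number was 23 over 106 chains of autonomy members and 18 over 1201 chains of cells with none. In turnover it was 33.5 over 4 chains of members and 27 in cells with none. The 169 autonomy members with a TRB chain held 127 distinct chains, the most frequent of them in 13 cells.

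The CDR3 sequences of the 3 most frequent autonomy TRB chains, read from the deposited contigs 5′ to 3′, show which clones were compared. The TRB locus lies on chromosome 6.
TRBV13-2 with TRBJ2-4: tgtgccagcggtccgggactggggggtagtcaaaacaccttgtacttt
TRBV29 with TRBJ2-5: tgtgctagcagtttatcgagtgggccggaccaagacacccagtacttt
TRBV3 with TRBJ2-2: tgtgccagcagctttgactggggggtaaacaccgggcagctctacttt
Interferon-response cells were 9 of 176 gated cells with the first chain (5.11%, 2.36% to 9.49%), 9 of 176 with the second (5.11%, 2.36% to 9.49%) and 13 of 133 with the third (9.77%, 5.31% to 16.1%). All 10 of the most frequent chains held interferon-response cells, at 1.92% to 10.5%, beside 6.21% of all gated cells with a TRB chain. The interval of each of these 10 chains included that share. Cells with a chain found in no other gated cell were interferon-response cells in 8.68% of cases (5.89% to 12.2%), and cells with a shared chain in 5.86% (4.95% to 6.88%).

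**Figure D5:**
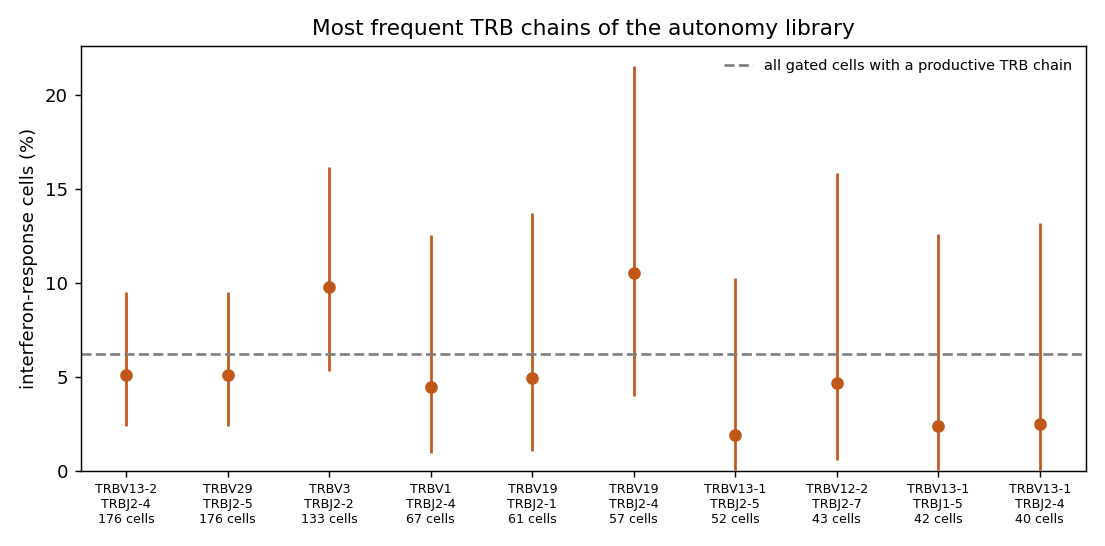
Share of interferon-response cells (%) among gated autonomy cells of the 10 most frequent TRB chains, with exact 95% intervals and the number of gated cells under each chain. The dashed line is the share over all gated cells with a productive TRB chain, 6.21%, which lies inside every interval.

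Mature and dividing cells, which lie outside the gate, also carried the 5 genes. Of 95 autonomy barcodes with a UMI of S1pr1, the receptor that lets mature thymocytes leave, 73 had at least 3 UMIs of the 5 genes (76.8%, 67.1% to 84.9%), with a median of 11107 UMIs per barcode. Their summed level of the 5 genes was 1081 CPM, against 295 CPM over gated autonomy cells. Autonomy barcodes with at least 3 UMIs of Mki67 and Top2a had 155 CPM. In turnover the level was 30.0 CPM in barcodes with at least 3 UMIs of Mki67 and Top2a and 42.6 CPM in gated cells.

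Promoters of the off-rule genes higher in both libraries, of which 45 stood on interferon-linked lists, were searched for the letters shown above. Of the 49 off-rule genes higher in both libraries 41 had a RefSeq window, and 19 of these held these ISRE letters on either strand (46.3%). The letters were found in 98 of 2396 windows of the other genes measured in both libraries (4.09%) and in 1079 of all 27025 genes with a window (3.99%). All 4 rule genes with a window held them. The GAS letters TTCNNNGAA were found in 9 of the 41 (22%), against 8.01% of the other measured genes and 9.55% of all genes. Irf7 and Xaf1 held no ISRE letters in their windows. A match is only a run of letters within 250 bases before and 50 after an annotated start.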

How the data were processed

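The 2 conditions, autonomy and turnover, had 1 expression library and 1 V(D)J library each. The deposited expression tables hold raw UMI counts per gene and barcode, and the deposited V(D)J tables hold read and UMI counts per contig. Cell Ranger 3.0.2, Seurat 3.1.3.9002 and the build mm10 are named in the submitters' processing notes. Which step each tool did is not given in the sources used here.

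Counts were summed over the cells of a set and divided by the total of that set to give UMIs per 1000000 (CPM). Genes with a mean level of at least 50 CPM over both sets were called past 2-fold. Intervals of ratios are conditional exact binomial, those of shares are Clopper-Pearson, and those of ratios of shares are log-normal, all at 95%. A count of 0 was given a floor of 3 UMIs over a cell set, which is no bound for a TCR segment carried by few cells. Cells were thinned to 1000 UMIs for depth, and no doublet caller was run. Median depth was 2397 UMIs per barcode in autonomy and 2078 in turnover. The V(D)J tables held 11821 autonomy contigs (105865 UMIs) and 12034 turnover contigs (177475 UMIs).

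With 1 library per condition there was no test and no p-value, and differences have no replicate check. The members and the 27 gene lists were chosen with earlier results of these data known. Of 392 list genes 6 were absent from the tables. Named genes were the 5 rule genes, list genes by rank of their autonomy ratio, the 15 highest and up to 10 lowest genes past 2-fold in both libraries by the interval limit nearest 1 (1 lower gene qualified), and the 8 highest and 8 lowest genes between members of the libraries. Genes set beside them as a contrast, such as Ly6e, Gbp8 and Stat2, were chosen after their values were seen. Promoter windows came from RefSeq (GRCm38.p6). The ratio calculation was also run on simulated counts with known changes. Those counts held no variation between cells, clones or animals, and the choice of cells by their own counts was not simulated. Such effects were therefore not checked. Alternatives changed the rule, the depth, the filter, the scaling and the cells kept. Figures were drawn with matplotlib 3.10.9 and tables made with pandas 2.3.3, scipy 1.17.1 and numpy 2.4.6 under Python 3.11.15. Results on 1 gene of the lists are not reported here, though list counts and sums include it.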

Additional observations from a re-analysis of the deposited data

Results flagged for a closer look

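Among 389 listed or named genes, 2 lay on opposite sides of 1 in the libraries with both counting intervals clear of 1. Notch1, the receptor that commits progenitors to the T lineage, had 159 CPM in members and 208 CPM in cells with none in autonomy (ratio 0.764), and 107 CPM, from 4 UMIs, and 24.7 CPM in turnover (4.35). Trbc2, a constant region of the TCR beta chain, had 2359 CPM in members and 2724 CPM in cells with none in autonomy (0.866), and 5902 and 3936 CPM in turnover (1.5). The difference between the libraries was not tested, since each condition had 1 library.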

How the results depend on the processing

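Ratios of named genes were recomputed under 6 of 18 alternatives (depth, centring, macrophage list, mature list, mitochondrial share and mean per cell): of 185 values 170 stayed within their counting interval, 14 left it and 1 changed sign. Of 233 other values over the 18 alternatives, 152 stayed within their error or within 1.5 times. Counts below leave out the rule genes; as reported they were 63 higher and 5 lower in autonomy, 373 and 303 in turnover, 49 and 1 in both libraries, and 492 and 344 for autonomy over turnover members. No paired analysis was possible because each condition had 1 library. The cause of a move was not tested.

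A sum of at least 2 UMIs gave shares of 10.7% in autonomy and 1.02% in turnover, 41 higher and 0 lower genes in autonomy, 151 and 165 in turnover, 0 lower in both, and a turnover median log2 ratio of interferon-stimulated genes of 1.41. A sum of at least 5 gave a share of 3.06% in autonomy, 26 lower genes there and 7 lower in both. Requiring at least 2 of the 5 genes gave 4.48% in autonomy, 9 lower genes there and 2 in both.

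Cells of 2000 to 6000 UMIs gave a share of 7.08% in autonomy and 570 higher genes in turnover, a productive TRB in 100% of turnover members, 75.5% of autonomy and 91.7% of turnover cells with none, and a productive TRA in 42.7% of autonomy and 51.8% of turnover cells with none. Thinned cells gave shares of 2.37% and 0.216% in autonomy and turnover and 52 higher interferon-stimulated genes in autonomy. A reference standardised for depth gave 3 lower genes in autonomy, as did the mean of levels per cell, and centring on the median gene gave 2.

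A minimum of 25 CPM gave 98 higher and 28 lower genes in autonomy, 684 and 663 in turnover, 2 lower in both, and 1005 and 626 between members. A minimum of 100 CPM gave 37 and 1 in autonomy, 105 and 76 in turnover, 27 and 0 in both, 20 higher interferon-stimulated genes in autonomy, and 164 and 99 between members. No filter gave 1195 and 3281 in autonomy, 1243 and 7653 in turnover, 126 and 2010 in both, and 5863 and 1136 between members.

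Cells with no UMI of the mature list gave a share of 4.56% in autonomy, a share ratio of 5.98, 106 higher and 62 lower genes in autonomy, 676 higher in turnover, 14 lower in both and 700 lower between members. They had a productive TRB in 65.5% of autonomy members, 68.0% of autonomy and 88.3% of turnover cells with none, and a TRA in 33.9% of autonomy and 43.1% of turnover cells with none. The autonomy log2 ratio of Ms4a4b was -0.63 in them. Cells with Y-linked and no Xist UMIs gave 3.54% in autonomy, a ratio of 5.19, 156 higher and 162 lower genes in autonomy and 23 lower in both.

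The settings of this paragraph were chosen after seeing the data. Among them, leaving out the barcodes found in both libraries gave a share ratio of 11.2. A minimum of 50 CPM in cells with none gave 27 higher and 13 lower genes in autonomy, 118 and 663 in turnover, 13 and 2 in both, 13 and 16 higher interferon-stimulated genes in autonomy and turnover, and medians of 0.95 and 1.31 for these. Cells with no Cd69 or Itm2a UMI gave 5.07% in autonomy, 8 lower genes there and 2 in both.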
